A study of Mus musculus with 4 samples.

Results

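The genes described here are 39 ligands and receptors of the ephrin, Slit-Robo and netrin guidance systems, a list fixed by gene symbol and not by level. Each symbol was found once among the 24771 features of the expression table. They comprise 14 Eph receptors with 8 ephrin ligands, 3 Slit ligands with 3 Robo receptors, 2 netrins with 6 netrin receptors (Dcc, Neo1 and 4 Unc5 genes), 2 repulsive guidance molecule (RGM) ligands that bind Neo1, and Draxin, a ligand of Dcc. Total RNA was sequenced from 2 samples of PSC-derived SG placodes, which are salivary gland (SG) placodes made from pluripotent stem cells (PSCs), and from 2 samples of mouse submandibular glands (SMGs) at E12.5, an embryonic day when the initial bud has formed. The placodes came from 1 mouse embryonic stem cell line and were collected after 10 days as floating aggregates. They were seeded at 3000 cells per well, kept in 2% Matrigel from day 1, exposed to BMP4 at 2 ng/ml on day 3 and to bFGF at 25 ng/ml together with retinoic acid (RA) at 1 μM on day 4, and moved on day 6 into medium with FGF10 at 200 ng/ml. For the SMGs, no strain, sex, number of pooled embryos or way of dissection is given in the sources used here, and no treatment is listed for them beyond the text shared by all samples.

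Guidance cues are secreted or membrane-bound proteins that attract or repel growing axons, migrating cells and vessels. Ephrins sit in the membrane of one cell and bind Eph receptor tyrosine kinases on its neighbour, with ephrin-A ligands anchored by a lipid and ephrin-B ligands spanning the membrane, so that signals can run into both cells and sort them apart. Slits are large secreted proteins that repel through Robo receptors, and netrins attract through Dcc or repel through Unc5 receptors. All of these systems are best known from the neural tube, but they also shape branching epithelia, blood vessels and the mesenchyme around them.

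Levels are given as FPKM, as the authors deposited them. FPKM is the fragments mapped to a gene scaled by transcript length and by all mapped fragments of the sample. The length scaling serves comparison between genes. Between samples the sum of FPKM differs, so comparisons there depend on the scaling, and other scalings were tried. Fold changes are differences between group means of log2(FPKM + 1), placodes minus SMGs, with their standard error (SE), so they fall short of the FPKM ratio for low genes. The 13193 features with a mean FPKM of at least 1 over the 4 samples were tested with limma, two-sided with Benjamini-Hochberg adjustment, and a gene was called at an adjusted p below 0.05. FPKM summed to between 361963 and 384773 per sample, 12636 to 12807 features reached 1 FPKM, and the read depth is unknown. With 2 samples against 2, an exact permutation test cannot go below a p of 0.333. Nothing states that samples of a group came from separate cultures or litters, so p-values measure the spread between these samples, which may be technical.

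The 2 tissues differed widely in their cell type markers, and with 2 groups this cannot be separated from the differences below. All 7 neuronal markers and all 6 neural progenitor markers were called higher in the placodes, where the neuronal markers summed to 977 and 1014 FPKM against 92.8 and 83.1 in the SMG samples. All 7 endothelial markers and all 7 mesenchymal markers were called lower, with endothelial sums of 12.2 and 11.8 against 129.8 and 138, and mesenchymal sums of 197 and 191 against 1814 and 1773. Of 9 epithelial markers, 7 were called lower, and Krt5, Krt14 and Krt15, keratins of the basal oral and glandular epithelium, were listed at 0 in both placode samples, so these defining markers of the label were not seen there, while the general epithelial keratins Krt8 and Krt18 were not called. Red blood cell and skeletal muscle markers summed to at most 2.16 FPKM per list in the placodes and to at least 61.0 in the SMGs. In such bulk samples, fewer cells of a type and less RNA per cell cannot be told apart, and the part of cell make-up in the differences below was not tested.

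Guidance genes were abundant in both groups, but the members in use differed. Of the 39 genes, 37 had at least 1 FPKM in both placode samples and 31 had it in both SMG samples. The 39 genes summed to 884 and 889.8 FPKM in the placode samples and to 716 and 719 in the SMG samples. Of the 38 genes tested, 34 (89.5%) were called, where 76.2% of all tested features were called (19 higher in the placodes, against 35.7% of features, and 15 lower, against 40.4%), so the count of calls stands near the background. Differences that were called and at least 2-fold numbered 27 (71.1%), against 29.4% of all features. Of these, 15 were higher in the placodes (39.5%, against 14.1% of features) and 12 were lower (31.6%, against 15.2%). The median absolute log2 fold change was 1.82, beside 0.55 over all features, in a list chosen with earlier results known. The filter let 9 genes in through 1 group alone (Epha1, Epha5, Epha6, Epha10, Slit1, Robo3, Ntn4, Unc5c and Draxin), which therefore had to differ. Among the 29 with a mean of at least 1 in both groups, 18 (62.1%) were called and at least 2-fold apart, beside 21.9% of the 11475 features of that kind, and the median absolute log2 fold change was 1.37, beside 0.47. Of those 18 genes, 8 were higher in the placodes (27.6% of the 29) and 10 were lower (34.5%), so the lean toward the placodes was not seen in this set. The groups did not overlap for 36 of the 39 genes, and 88.4% of all tested features did not overlap either. Epha8 was the only one that missed the filter.

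**Figure D1:**
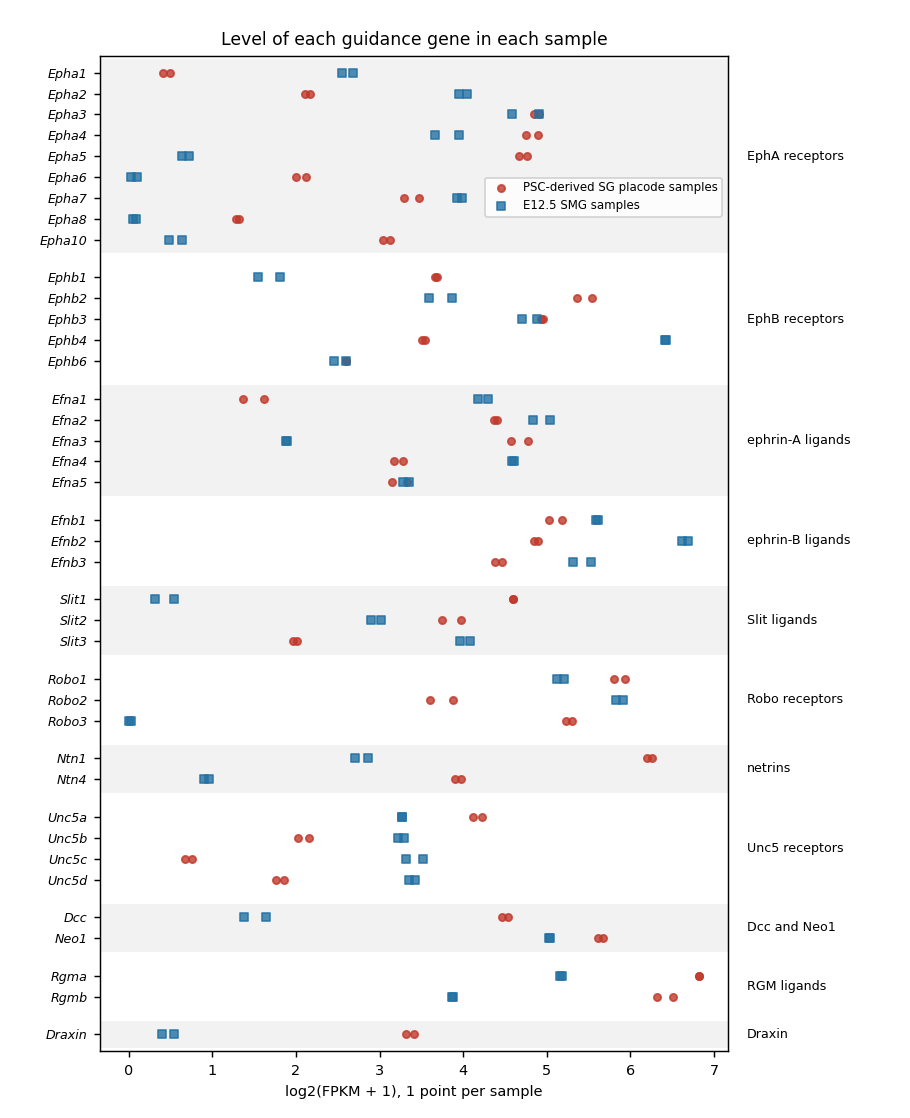
Level of each of the 39 guidance genes as log2(FPKM + 1) on the horizontal axis, with 1 point per sample, circles for the 2 placode samples and squares for the 2 SMG samples, ordered by class. Robo3, Slit1, Epha5 and Ntn1 lie far to the right in the placodes, Ephb4, Efnb2, Robo2 and Unc5c lie further right in the SMGs, and the points of the groups overlap for Epha3, Ephb6 and Efna5.

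EphA receptors, which bind mainly the lipid-anchored ephrin-A ligands, differed between the groups in which members were used. Of the 8 tested, 4 rose (Epha4, Epha5, Epha6 and Epha10), 3 fell (Epha1, Epha2 and Epha7) and Epha3 was not called. Epha5, a receptor of developing neurons, stood at 24.4 and 26.1 FPKM in the placode samples, and 0.553 and 0.655 FPKM were measured in the SMG samples. Both placode samples were high and both SMG samples were below 1, a 41.9-fold ratio of the means and a log2 fold change of 4.03 (SE 0.09, limma adjusted p = 4.37e-07). Epha6, another receptor of neural tissue, was at 2.99 and 3.36 against 0.016 and 0.0712, with a log2 fold change of 2.00. Epha10, a family member whose kinase domain lacks catalytic activity, was at 7.24 and 7.76 against 0.562 and 0.401. Epha8, also a neural receptor, followed the same order without a test, at 1.44 and 1.5 against 0.0400 and 0.0657. These 4 genes were at 0.655 FPKM or less in each SMG sample.

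Epha4, which binds ephrin-B as well as ephrin-A ligands, stood at 25.9 and 28.7 FPKM in the placodes, and 14.5 and 11.6 FPKM were measured in the SMGs, giving a log2 fold change of 1.02 (SE 0.11, limma adjusted p = 2.23e-04). The change of Epha4 was close to the 2-fold line. Epha1, known from epithelial tissues, was at 0.334 and 0.409 against 5.43 and 4.88, a log2 fold change of -2.17 (SE 0.11, limma adjusted p = 9.08e-06). Epha2, an epithelial receptor that acts at cell junctions, was at 3.32 and 3.51 against 14.5 and 15.5, with a log2 fold change of -1.86. Both lay well apart between the groups, beside the fall of 7 of 9 epithelial markers, and the part of the epithelium in this was not tested. Epha1 shares 236 exon bases with Zyx on the opposite strand, which stood at 33.7 to 53.3 FPKM, and without known strand the reads of that stretch cannot be assigned to one gene. Epha7 fell by less, at 8.78 and 10.1 against 14.8 and 14.2 (log2 fold change -0.57, limma adjusted p = 1.07e-03). Epha3 was at 27.8 and 29.0 against 28.9 and 23.0, so its groups overlapped (limma adjusted p = 0.28).

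In the order of levels, Epha3 led the class in both groups. In the placodes Epha3, Epha4 and Epha5 (means 28.4, 27.3 and 25.3) overlapped as neighbours, followed by Epha7 at 9.44, while in the SMGs Epha3 at 25.9 stood clear of Epha2, Epha7 and Epha4, which overlapped at 15.0, 14.5 and 13.0. Epha5 made up 23.9% and 23.6% of the summed EphA level of the placode samples, and only 0.698% and 0.931% of that of the SMG samples. The class as a whole summed to 106 ± 5.82 FPKM (SD, n = 2) for the placodes and to 74.8 ± 6.25 (SD, n = 2) for the SMGs.

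EphB receptors, the main partners of the ephrin-B ligands, had a different leading receptor in each group. Ephb4, the receptor that marks venous endothelium and guides artery and vein apart, stood at 10.7 and 10.4 FPKM in the placodes, and 84.6 and 84.8 FPKM were measured in the SMGs. The SMG samples were 8.05-fold higher with almost no spread, a log2 fold change of -2.90 (SE 0.05, limma adjusted p = 2.05e-07). Ephb2, which acts in axon guidance and at synapses, went the other way, at 40.2 and 45.4 against 11 and 13.6 (log2 fold change 1.72, SE 0.11, limma adjusted p = 2.06e-05). Ephb1, also best known from axon pathfinding, was at 11.6 and 11.9 against 2.52 and 1.92, with a log2 fold change of 1.99. The ratio of Ephb2 to Ephb4 within a sample, which no single scaling factor per sample can alter, was 3.76 and 4.38 in the placodes and 0.130 and 0.160 in the SMGs.

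The remaining EphB receptors were not called. Ephb3, which takes part in cell sorting in epithelia, was at 29.6 and 30.1 against 28.5 and 25.0 (limma adjusted p = 0.0945), and Ephb6, whose kinase domain is inactive, was at 5.06 and 5.04 against 5.08 and 4.50 (limma adjusted p = 0.559). For Ephb3 the groups did not overlap but were close, and it passed the threshold under 2 of 4 other scalings, with log2 fold changes of 0.13 to 0.21 across them. Ephb4 held 64.2% and 65.3% of the EphB level in the SMG samples and 11% and 10.1% in the placode samples, where Ephb2 led with 41.4% and 44.2%. EphB sums were 99.9 ± 4.04 FPKM (SD, n = 2) for the placodes and 131 ± 1.29 (SD, n = 2) for the SMGs. EphA and EphB sums moved in opposite directions, and all 14 Eph receptors together came to 199 and 213 FPKM in the placodes and 211 and 200.2 in the SMGs, which overlap.

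Ephrin-A ligands are tethered to the outer membrane and serve the EphA receptors. Of 5 genes, Efna3 rose, Efna1, Efna2 and Efna4 fell, and Efna5 was not called. Efna3 stood at 26.4 and 22.9 FPKM in the placode samples, and 2.67 and 2.72 FPKM were measured in the SMG samples, giving a log2 fold change of 2.79 (SE 0.09, limma adjusted p = 1.48e-06). Efna1, a ligand induced in endothelium and epithelium, was at 2.07 and 1.59 against 18.7 and 17.1, a log2 fold change of -2.74 (SE 0.11, limma adjusted p = 3.46e-06). Efna4 was at 8.71 and 8.05 against 23.0 and 23.4, with a log2 fold change of -1.37. For these genes both samples of a group lay far from both samples of the other. Efna2 fell by 0.55 on the log2 scale, at 20.3 and 19.6 against 27.5 and 31.9. Efna5, a classic repellent of retinal axons, was at 7.89 and 9.06 against 9.21 and 8.71, so the groups overlapped (limma adjusted p = 0.482). Efna3 was the top ephrin-A ligand of the placodes and the lowest of the SMGs, where Efna2 led.

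The opposite course of Efna3 and its relatives took place within 1 small stretch of the genome. On chromosome 3 of GRCm38, in GENCODE M21, Efna1 spans 89271733 to 89281142, Efna3 spans 89313899 to 89322965 and Efna4 spans 89333390 to 89338028, all on the minus strand. The gap between Efna1 and Efna3 is 32.8 kb and that between Efna3 and Efna4 is 10.4 kb, so the gene that rose lies between the 2 that fell. The ratio of Efna3 to Efna1 within a sample was 12.8 and 14.4 in the placodes and 0.143 and 0.159 in the SMGs. Efna3 and Efna4 each share exon bases with an antisense gene on the opposite strand (344 and 168 bases), which were not analysed here.

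The stretches just before the gene starts of these neighbours, and of 3 further genes with large differences, are shown from RefSeq (GRCm38.p6), 5′ to 3′ on the strand of the gene and ending at the last base before the annotated start. They are Efna3 at chr3:89322966-89323189 (minus strand), Efna4 at chr3:89338029-89338278 (minus), Epha5 at chr5:84417383-84417632 (minus), Ephb4 at chr5:137349859-137350108 (plus) and Efnb2, the partner of Ephb4, at chr8:8661243-8661492 (minus). Capitals mark matches on either strand to GGGCGG (the GC box), to the CCAAT box, to the TATA box core TATAAA, to CAGCTG (an E-box read by neural bHLH factors) and to AGGTCA (the core hexamer of retinoid receptor sites).
Efna3, higher in placodes: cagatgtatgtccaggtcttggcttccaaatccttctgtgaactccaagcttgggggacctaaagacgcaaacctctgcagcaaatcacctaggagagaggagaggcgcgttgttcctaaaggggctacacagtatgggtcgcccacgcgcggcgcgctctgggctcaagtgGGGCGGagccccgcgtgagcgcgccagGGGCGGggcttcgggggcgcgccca
Efna4, lower in placodes: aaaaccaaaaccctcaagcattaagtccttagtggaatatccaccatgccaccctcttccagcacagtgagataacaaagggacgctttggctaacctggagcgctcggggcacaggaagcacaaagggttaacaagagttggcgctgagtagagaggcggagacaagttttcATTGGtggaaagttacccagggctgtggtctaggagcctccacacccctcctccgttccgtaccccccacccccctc
Epha5, higher in placodes: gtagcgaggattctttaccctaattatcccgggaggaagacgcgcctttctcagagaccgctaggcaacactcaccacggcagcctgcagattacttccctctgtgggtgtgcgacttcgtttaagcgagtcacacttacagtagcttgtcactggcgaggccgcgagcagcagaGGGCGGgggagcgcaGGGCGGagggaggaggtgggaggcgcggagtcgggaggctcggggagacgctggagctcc
Ephb4, lower in placodes: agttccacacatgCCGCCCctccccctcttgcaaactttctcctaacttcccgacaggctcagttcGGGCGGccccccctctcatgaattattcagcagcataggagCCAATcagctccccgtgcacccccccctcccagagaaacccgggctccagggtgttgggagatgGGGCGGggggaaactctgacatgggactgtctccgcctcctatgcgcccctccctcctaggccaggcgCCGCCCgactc
Efnb2, lower in placodes: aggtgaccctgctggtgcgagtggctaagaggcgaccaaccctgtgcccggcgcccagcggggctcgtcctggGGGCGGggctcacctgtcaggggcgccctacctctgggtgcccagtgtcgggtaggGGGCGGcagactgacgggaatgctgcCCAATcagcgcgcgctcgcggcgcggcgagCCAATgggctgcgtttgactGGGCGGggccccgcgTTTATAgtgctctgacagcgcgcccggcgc
On chromosome 3, the stretch before Efna3 holds 2 GC boxes and 18 CpG dinucleotides in 224 bases, and that before Efna4 holds no GC box, 1 CCAAT match and 7 CpG dinucleotides in 250 bases. The window before Efna1, which fell as Efna4 did, holds a GC box match like that before Efna3, so a GC box match does not follow the direction among these neighbours. The highest number of CpG dinucleotides among the 5 is the 27 before Efnb2, which also has 3 GC boxes, 2 CCAAT matches and 1 TATAAA match. None of the 5 stretches has a CAGCTG or AGGTCA match, which says only that these letters are not in these windows. A promoter entry was found for 33 of the 39 genes, the others being Ntn1, Efnb3, Slit1, Unc5d, Dcc and Rgma. In the 250 bases before the start, GGGCGG was present in 24 of the 33, where 32.9% of the 27025 promoters hold it, CCAAT in 13 (34.5% of all), CAGCTG in 4 (12.8%), TATAAA in 3 (13.0%) and AGGTCA in 2 (13.8%). By direction, GGGCGG was present in 8 of the 11 matched genes that were called at least 2-fold higher and in 7 of the 10 called at least 2-fold lower, and CAGCTG in 3 of the 11 and 0 of the 10. The windows of the 33 genes held a median of 19 CpG dinucleotides, against 6 over all promoters. The shares above were not matched for this difference. These matches are a description of the sequence and were not tested.

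Ephrin-B ligands span the membrane and signal back into the cell that carries them. All 3 were called lower in the placodes. Efnb2, which marks arterial endothelium and is the main ligand of Ephb4, stood at 27.7 and 28.6 FPKM in the placode samples, and 96.9 and 102.0 FPKM were measured in the SMG samples, giving a log2 fold change of -1.78 (SE 0.05, limma adjusted p = 8.86e-07). Efnb3, a midline and neuronal ligand, was at 21 and 19.9 against 38.9 and 45.1, with a log2 fold change of -1.0 (limma adjusted p = 6.07e-05) that sits on the 2-fold line and was short of it under 3 of 4 other scalings. Efnb1, a ligand of craniofacial mesenchyme and epithelium, was at 35.4 and 31.7 against 47.8 and 47.3, a log2 fold change of -0.49 (limma adjusted p = 6.01e-04). None of the 3 overlapped between the groups, where 88.4% of all tested features did not overlap either. Their sum was 82.2 ± 2.77 FPKM (SD, n = 2) for the placodes and 189 ± 7.60 (SD, n = 2) for the SMGs. The leading ephrin-B ligand was Efnb1 in the placodes, at 42.1% and 39.5% of the class, and Efnb2 in the SMGs, at 52.8% and 52.5%.

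Set beside their receptors by summed RNA level, ephrin ligands were lower in the placodes and level or higher in the SMGs. Protein was not measured. Summed ephrin-A FPKM divided by summed EphA FPKM was 0.638 and 0.554 in the placodes and 1.02 and 1.19 in the SMGs. Summed ephrin-B over EphB was 0.867 and 0.780 against 1.39 and 1.5. Within the pair that separates artery from vein, however, Efnb2 exceeded Ephb4 by 2.60 and 2.76 times in the placodes and by 1.15 and 1.20 times in the SMGs, since Ephb4 fell further than Efnb2. Both genes fell together with all 7 endothelial markers, some of which passed the filter through the SMGs alone. Kdr, the main VEGF receptor, was such a marker, at 0.643 and 0.672 against 20.0 and 20.8. The part of vessels in this was not tested.

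**Figure D2:**
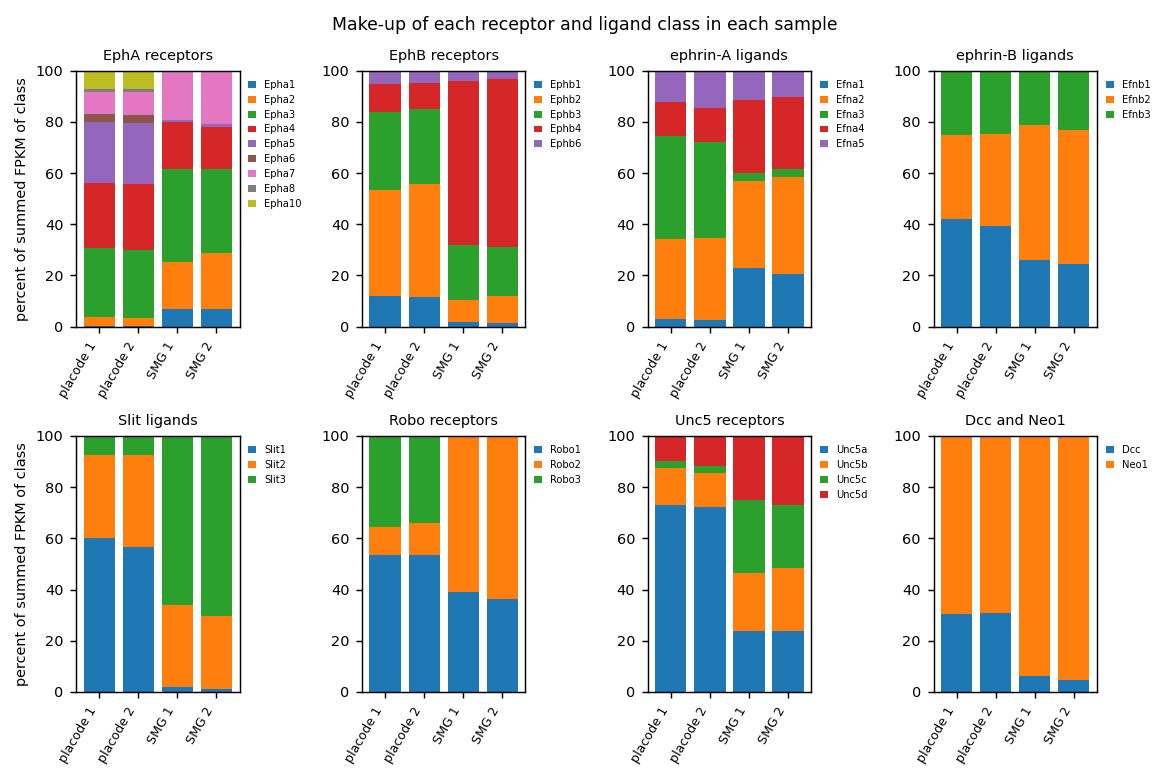
Percent of the summed FPKM of each receptor or ligand class held by each of its genes, in 1 stacked bar per sample, with 2 placode and 2 SMG samples. The 2 samples of a group have nearly the same make-up, while the leading gene changes from Ephb4 to Ephb2, Slit3 to Slit1 and Robo2 to Robo1 between SMGs and placodes.

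Slits are secreted repellents that bind Robo receptors and are released, among other sources, by the floor plate of the neural tube. Slit1, the member most confined to the nervous system, stood at 23.2 FPKM in both placode samples, and 0.456 and 0.247 FPKM were measured in the SMG samples, giving a log2 fold change of 4.17 (SE 0.11, limma adjusted p = 6.39e-07). Slit3, found in mesenchyme, muscle and vessel walls, ran the opposite way, at 2.90 and 3.04 against 14.6 and 16 (log2 fold change -2.04, SE 0.09, limma adjusted p = 4.11e-06). Slit2 rose by less, at 12.48 and 14.7 against 7.07 and 6.48 (log2 fold change 0.90, limma adjusted p = 2.51e-04). Within a sample, Slit1 exceeded Slit3 by 8.02 and 7.63 times in the placodes, and the same ratio was 0.0313 and 0.0154 in the SMGs. All 3 genes were separated between the groups, as were 88.4% of all tested features. The order of the class was fully turned around, from Slit3 over Slit2 to Slit1 in the SMGs to the reverse in the placodes, with no overlap between neighbours in either order.

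Robo1 and Robo2 are receptors for Slits, and their relative Robo3, which had the highest log2 fold change among the 39 genes, binds Slits poorly in mammals. Robo3, known from commissural neurons, whose axons need it to cross the midline, stood at 36.7 and 38.3 FPKM in the placode samples, and 0 and 0.0189 FPKM were measured in the SMG samples. It was thus listed at or close to 0 in the SMGs, and the log2 fold change of 5.25 (SE 0.09, limma adjusted p = 1.94e-07) depends on the pseudocount of 1. Robo2 was at 11.2 and 13.7 against 55.8 and 59.1, a log2 fold change of -2.13 (SE 0.10, limma adjusted p = 5.20e-06). Robo1, the most widely used receptor of the family, was at 55.0 and 60.1 against 36 and 33.8 (log2 fold change 0.71, limma adjusted p = 1.07e-04). Robo1 and Robo2 lie 845.7 kb apart on chromosome 16, and their ratio within a sample was 4.92 and 4.39 in the placodes and 0.646 and 0.571 in the SMGs. Robo3 held 35.7% and 34.2% of the Robo level in the placodes. The sum of the class differed little by comparison, at 108 ± 6.61 FPKM (SD, n = 2) against 92.4 ± 0.822 (SD, n = 2). Robo4, the endothelial relative that is not among the 39 genes and is named after its values were seen, was at 0.105 and 0.118 against 4.98 and 4.76. Ligand per receptor was higher in the placodes, where summed Slit over summed Robo was 0.375 and 0.365 against 0.241 and 0.245 in the SMGs, and 0.584 and 0.554 against the same SMG values with Robo3 left out.

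Netrins are laminin-related secreted cues, and Ntn1 and Ntn4 were called higher in the placodes, whereas Ntn3, another secreted netrin that is not among the 39 genes and is named after its values were seen, was called lower. Ntn1, the attractant that draws commissural axons and is made by the floor plate and by neural progenitors, stood at 75.4 and 72.3 FPKM in the placode samples, and 6.27 and 5.53 FPKM were measured in the SMG samples. The placode level was 12.52-fold higher, a log2 fold change of 3.44 (SE 0.07, limma adjusted p = 3.30e-07). Ntn4, a netrin of basement membranes, was at 14.7 and 13.9 against 0.940 and 0.875, with a log2 fold change of 3.00 (SE 0.09, limma adjusted p = 1.10e-06). Both were far apart between the groups while keeping nearly the same proportion, with Ntn1 at 83.7% and 83.9% of the netrin sum in the placodes and 87.0% and 86.3% in the SMGs. Ntn3 was at 3.44 and 3.52 against 13.2 and 12.7 (log2 fold change -1.64, limma adjusted p = 7.01e-06). The sum of Ntn1 and Ntn4 was 12.9 times higher in the placodes, and with Ntn3 added the sum was 4.65 times higher. Of the 5 floor plate markers, Shh and Spon1 were tested and called higher. Shh, at 2.59 and 2.92 against 0 and 0.0735, passed the filter through the placodes alone, so it had to differ. Spon1 was at 8.37 and 10.2 against 5.45 and 4.82, a log2 fold change of 0.74, and held most of the list's sum in each sample. The list summed to 13.5 and 17.6 FPKM in the placodes and 5.83 and 5.13 in the SMGs. All 6 neural progenitor markers also rose, though Sox1, Pax6 and Hes5 passed the filter through the placodes alone. The part of either cell type in the netrin level was not tested.

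Among the netrin receptors, Dcc, Neo1 and Unc5a were called higher in the placodes and Unc5b, Unc5c and Unc5d lower. Dcc, which mediates attraction to netrin, stood at 21 and 22.2 FPKM in the placode samples, and 2.11 and 1.60 FPKM were measured in the SMG samples, giving a log2 fold change of 2.99 (SE 0.11, limma adjusted p = 2.21e-06). Neo1 encodes neogenin, a relative of Dcc that binds netrins and RGM proteins. It was at 47.8 and 49.9 against 31.8 and 31.7 (log2 fold change 0.61, limma adjusted p = 6.72e-05), and it was the highest netrin receptor in both groups. Ntn1 and Dcc kept their proportion, at 3.58 and 3.26 FPKM of Ntn1 per FPKM of Dcc in the placodes and 2.97 and 3.45 in the SMGs, which overlap.

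Unc5 receptors, which turn netrin into a repellent and bind Flrt proteins, were mostly lower in the placodes. Unc5c was at 0.687 and 0.599 against 10.5 and 8.95, a log2 fold change of -2.70 (SE 0.11, limma adjusted p = 3.89e-06). Unc5d was at 2.38 and 2.62 against 9.19 and 9.69 (log2 fold change -1.58, limma adjusted p = 1.51e-05). Unc5b, the member used by endothelial cells, was at 3.44 and 3.05 against 8.30 and 8.83 (log2 fold change -1.17, limma adjusted p = 6.42e-05). Those 3 were separated between the groups with the SMGs on top, where 88.4% of all tested features were separated in either direction. Unc5a, found in neurons, was the exception in direction. Unc5a was at 17.7 and 16.3 in the placodes against 8.66 and 8.6 (log2 fold change 0.90, limma adjusted p = 5.62e-05). In the SMGs the 4 receptors were near each other, from 8.56 to 9.70 on average, whereas in the placodes Unc5a made up 73.0% and 72.2% of the class. Summed Unc5 level was 23.4 ± 1.13 FPKM (SD, n = 2) for the placodes and 36.3 ± 0.38 (SD, n = 2) for the SMGs, while Dcc and Neo1 summed to 70.5 ± 2.32 and 33.6 ± 0.426 (SD, n = 2).

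RGM ligands are membrane-anchored proteins that repel through Neo1 and also act as co-receptors for BMPs. They had the highest levels of all 39 genes in the placodes. Rgma was at 112 FPKM in both placode samples and at 35.1 and 34.8 in the SMG samples, giving a log2 fold change of 1.65 (SE 0.04, limma adjusted p = 7.20e-07). Rgmb was at 89.7 and 79.0 against 13.6 and 13.7, a log2 fold change of 2.54 (SE 0.07, limma adjusted p = 7.93e-07). Both were well separated, and the pair summed to 196 ± 7.07 FPKM (SD, n = 2) for the placodes, 4.04 times their sum in the SMGs. Rgma shares 258 exon bases with an antisense gene that was not analysed here.

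Draxin, a secreted repellent of commissural axons that binds Dcc, completed the group. It was at 9 and 9.64 FPKM in the placodes and at 0.458 and 0.324 in the SMGs, giving a log2 fold change of 2.89 (SE 0.11, limma adjusted p = 2.45e-06). Draxin, Dcc, Robo3, Slit1, Epha5 and Ntn4 were all under 2.5 FPKM in each SMG sample and over 8 FPKM in each placode sample. These limits were set after the values were seen. All 7 neuronal markers rose as well, while Efnb3, a midline and neuronal ligand, fell, and the part of neurons in this was not tested.

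**Figure D3:**
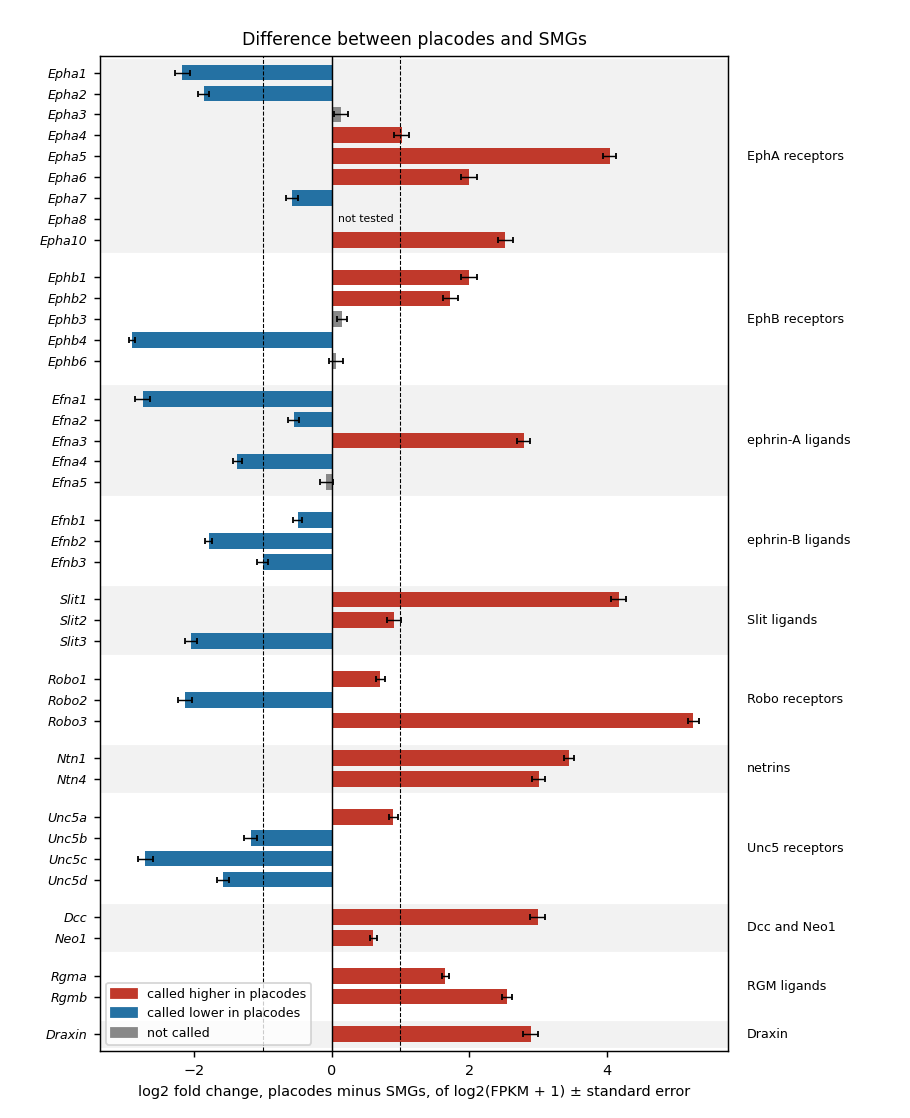
Difference between placodes and SMGs for the 38 tested guidance genes, as log2 fold change of log2(FPKM + 1) with standard error bars and dashed lines at 2-fold. The 19 genes called higher point right, the 15 called lower point left and the 4 not called (Epha3, Ephb3, Ephb6 and Efna5) stay near 0.

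**Figure D4:**
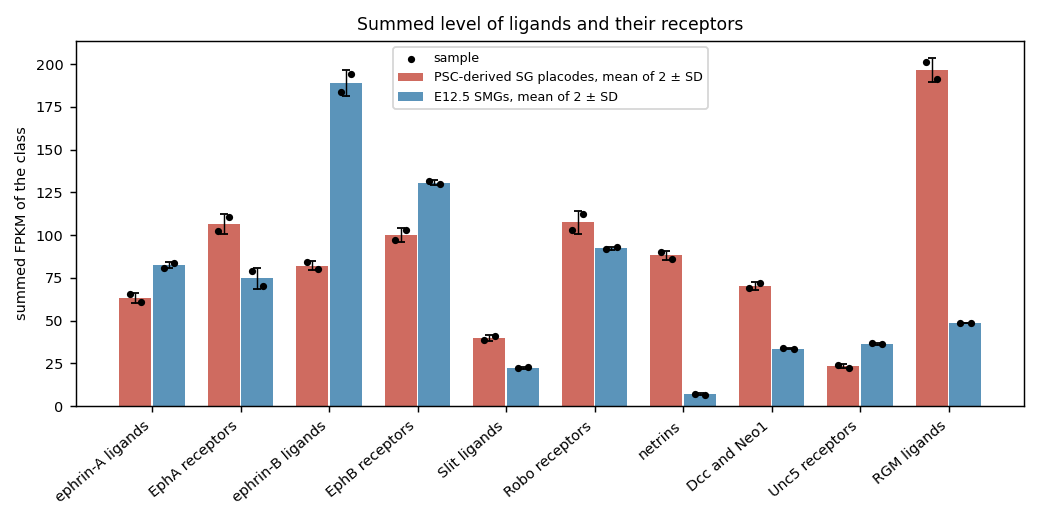
Summed FPKM of each ligand class beside its receptors, as means of 2 samples with SD bars and points for single samples. Ephrin-B ligands were 2.30 times higher in the SMGs, and the netrins Ntn1 and Ntn4 were 12.9 times (4.65 times with Ntn3 added, which is not plotted) and RGM ligands 4.04 times higher in the placodes.

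Genes that act with these receptors were taken from a list of 56 regulators and further ligands, of which 53 were tested. In the placodes 24 were called higher (45.3%, against 35.7% of all features) and 18 lower (34%, against 40.4%), so that 79.2% were called, near the 76.2% of all features. At least 2-fold differences were found for 9 and 12 of them, or 39.6%, against 29.4%. Some of these, among them Arhgef19, Robo4, Trim9 and Trim67, had a mean below 1 FPKM in 1 group. The filter let such genes in through the other group alone, so they had to differ, and the share without them was not computed. Their median absolute log2 fold change of 0.75 lay between that of the 38 receptors and ligands and that of all features. Among the 15 genes of Slit-Robo signalling, 10 were called higher and 3 lower, or 86.7% called. The 23 genes of Eph signalling, such as adaptors and exchange factors, were divided at 9 higher, 8 lower and 6 not called, or 73.9% called, which is no more than among all features. Of 15 tested genes around netrins and RGMs, 5 were called higher and 7 lower, and each of these 12 (80%) was at least 2-fold apart. Among these 12, Trim9, Trim67, Ntng1 and Hjv had a mean below 1 FPKM in 1 group and so had to differ.

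The 3 genes of this list with the highest log2 fold changes belonged to the netrin set. Trim9, a ubiquitin ligase of the brain that binds Dcc, was at 13.6 and 13.5 FPKM in the placodes and 0.316 and 0.196 in the SMGs (log2 fold change 3.54, limma adjusted p = 8.99e-07). Its relative Trim67 was at 12.1 and 11.9 against 0.936 and 0.623. Ntng2, a membrane-anchored netrin of neurons, was at 18.9 and 18.5 against 1.86 and 1.31. All 3 were called higher, as was Dcc, but Trim9 and Trim67 had SMG means below 1 FPKM (0.256 and 0.779). The filter thus let both in through the placodes alone.

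The 3 lowest were Arhgef19, Dock1 and Flrt2. Arhgef19, a guanine nucleotide exchange factor, was at 0.700 and 0.989 against 30.1 and 26.7 (log2 fold change -4.00, limma adjusted p = 8.51e-07). With a placode mean of 0.844 FPKM, it passed the filter through the SMGs alone. Dock1, which activates Rac downstream of Dcc among other receptors, was at 3.24 and 3.55 against 33.9 and 35.7, so this effector moved in the opposite direction to Dcc. Flrt2, a membrane ligand of Unc5 receptors in mesenchyme, was at 7.35 and 7.92 against 47.2 and 49.3, lower in the placodes as Unc5b, Unc5c and Unc5d were. Its relative Flrt3 was also called lower, at 8.49 and 9.44 against 20.7 and 22.0. Flrt1 was called higher, at 4.44 and 4.64 against 1.36 and 1.34, as Unc5a was.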

How the data were processed

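RNA-seq of 2 placode and 2 SMG samples was grouped by the sample labels. The authors mapped paired-end reads with HISAT2 and deposited FPKM per gene, 1 column per sample. The submitters' processing notes name both GRCm38 and the human build GRCh38, and the growth text of the SMG samples repeats the stem cell culture protocol, while the annotation, the strand setting and the program behind FPKM are not given in the sources used here. For 491 genes above 0 and below 0.3 FPKM in all 4 samples, 4.56% of 723 values of the placode samples lay within 0.02 of a whole multiple of the gene's lowest value, where an even spread gives 4%, so this check recovered no read counts.

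FPKM was transformed as log2(FPKM + 1), and features with a mean of at least 1 were fitted with limma 3.58.1 (R 4.3.3, lmFit and eBayes with trend), group being the only term. Calls used Benjamini-Hochberg adjusted p-values over all 13193 features, and the procedure was tested on simulated data. Genes named are all 39 members and, of the 56 pathway genes, the 3 highest and 3 lowest called. Robo4, Ntn3, Ntng1, Hjv, Flrt1 and Flrt3 were named beyond this rule, after their values were seen. Hjv was found under its older symbol Hfe2. Coordinates came from GENCODE M21. Exon bases shared with another annotated gene were found for 10 members, always on the opposite strand. Alternatives changed the pseudocount, scaling, filter, variance model, features, block and replicates. The members and lists were chosen with earlier results of these data known.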

Additional observations from a re-analysis of the deposited data

How the results depend on the processing

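Of the 38 tested guidance genes, 34 kept their direction and their side of the threshold under each of the 16 alternatives that tested them, and the exceptions were Epha3, Ephb3, Ephb6 and Efna5, which were not called. The log2 fold change of Epha3 became -0.024 without SMG replicate 2 and was called at 0.29 without SMG replicate 1, that of Ephb6 ran from -0.0071 to 0.14 without 1 SMG replicate, and that of Efna5 ran from -0.16 to 0.015 without 1 placode replicate. Ephb3 was called at 0.21 after rescaling to an equal sum (TPM) or by median ratios, and at 0.25 without SMG replicate 1. The cause was not tested. The counts of genes called higher and lower stayed at 19 to 21 and 15 without any 1 replicate, where a lone sample is assumed to vary like the other group, and those at least 2-fold apart at 14 to 16 and 11 to 12. A mean FPKM of at least 5 left 16 called higher and 14 lower. Efnb3 left the 2-fold count under TPM (-0.94), median ratios (-0.95) and rescaling without mitochondrial and ribosomal protein genes (-0.99). The groups share replicate numbers but the labels name no shared origin, and the differences between replicates 1 and 2 correlated across features at r = -0.0348 between the groups. With the replicate number as a block, 19 were called higher and 15 lower, and 23 and 18 of the pathway genes. The depth behind low values, such as those of Robo3 and Epha6 in the SMGs, is unknown.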
